A study of Mus musculus with 6 samples.

Results

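The 10 genes described here encode leucine sensors and controllers of mTORC1, the growth kinase complex that amino acids and growth factors switch on at the lysosome. They are the Sestrin genes Sesn1, Sesn2 and Sesn3, the kinase gene Mtor and its scaffold partner gene Rptor, the Rag GTPase genes Rragc and Rragd, the GATOR1 subunit genes Depdc5 and Nprl2, and the stress-induced inhibitor gene Ddit4. They were chosen by name from the 49585 genes of the deposited tables. Each name matched 1 row, and all 10 genes passed the filter on low counts that left 14020 genes for testing. The libraries, 3 of genotype Bcat1-KO and 3 of genotype Control, were made from polyA RNA of mGB2 cells, a mouse line that the labels call a glioblastoma stem cell. All cells were untreated and grew attached to matrix-coated plates, in DMEM:F12 medium with N2, B27, EGF and FGF. Bcat1 encodes the cytosolic enzyme that removes the amino group of leucine, isoleucine and valine. The labels give neither the way the gene was targeted, nor whether the knockout cells are 1 clone, nor whether replicates are separate cultures. The p-values therefore measure the spread between these samples, which may be technical. In bulk RNA, fewer cells that make a transcript and less of it per cell cannot be told apart.

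Leucine reaches mTORC1 through a chain of inhibitors. Sestrins without leucine hold back the GATOR2 complex, which in turn restrains GATOR1, the complex that switches off RagA and RagB. A Rag dimer pairs RagA or RagB with RagC or RagD, sits on the lysosome through Ragulator and brings mTORC1 to Rheb, its activator. Ddit4 (REDD1) acts on the other arm, where it favours TSC, the complex that switches Rheb off. The mRNA levels given here do not measure the activity of the kinase.

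Of the 10 genes, 3 were higher in the knockout (Depdc5, Mtor and Nprl2), 2 were lower (Ddit4 and Rragd) and 5 did not pass the threshold (edgeR's quasi-likelihood F-test, with p adjusted by Benjamini-Hochberg over all genes tested and a threshold of 0.05). In the whole comparison 62.3% of tested genes were called, 32% higher and 30.3% lower, so a share of 5 in 10 is close to the background. The median log2 fold change was 0.11 over the 10 genes and 0.01 over all tested genes, and the median size of the change was 0.28 against 0.38. The CPM of the 2 groups was fully separated for 5 of the 10 genes, where the same held for 67.7% of all tested genes. In a test against a 1.5-fold change, which 21.7% of tested genes passed, Depdc5 passed (adjusted p = 0.013, edgeR) and Ddit4 did not (adjusted p = 0.0804, edgeR).

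Libraries held between 29543157 and 37800648 strand-matched counts, and single genes of the 10 held between 580 and 12394 counts in a library. Bcat1 itself had 155, 176 and 173 CPM in knockout libraries against 214, 223 and 232 CPM in controls (CPM, counts scaled by library size with TMM factors). It fell by 0.41 on the log2 scale (SE 0.07, adjusted p = 0.000355, edgeR) without overlap of the groups, so the transcript was still present in the knockout libraries, and counts over the whole gene do not show whether a small edit was made. Bcat1-KO replicate 1 stood apart from the other knockout libraries, with a chi-square per gene of 31.1 and 32.5 against them where they differed from each other by 12.4. Without it, 4 of the 10 genes were higher, Sesn2 being the added one, and 2 lower. Calls over all tested genes moved as well, from 3871 to 4589 higher and 3846 to 4741 lower across the fits that left out 1 library. Of 8 markers of neural or glioblastoma stem cells, all tested, 5 were higher in the knockout (Sox2, Olig2, Sox9, Vim and Prom1). The others were Pou3f2 and Sall2, which were lower, and Nes, which did not pass. Of all tested genes 32% were higher and 30.3% lower. Pou3f2 fell from 17.8 ± 1.2495 to 1.74 ± 0.185 CPM and Sall2 from 117 ± 4.15 to 73.3 ± 2.86 CPM, whereas Sox2 rose from 136 ± 4.4 to 336 ± 44.9 CPM. The summed level of the 8 was 1999 to 2195 CPM in the knockout and 1452 to 1539 CPM in the control. Prom1 stayed below 1 CPM in the knockout and was at 0 counts in the control. Markers of microglia and macrophages summed to 2.68 to 4.71 CPM, mostly from Cd68, endothelial markers to 0.249 to 0.994 CPM, and T cell markers to at most 0.0688 CPM. Among the 6 fibroblast markers, which summed to 45.3 to 58.6 CPM in the knockout and 38 to 40.2 CPM in the control, Pdpn and Col1a1 gave nearly all counts, and Col1a2, Dcn, Lum and Fap were below 1 CPM. Pdpn was at 40.9 to 52.7 CPM in the knockout and 20.2 to 21.4 CPM in the control, and Col1a1 at 3.51 to 5.32 and 17.0 to 18.6 CPM. The part of these marker levels in the results below was not tested.

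**Figure D1:**
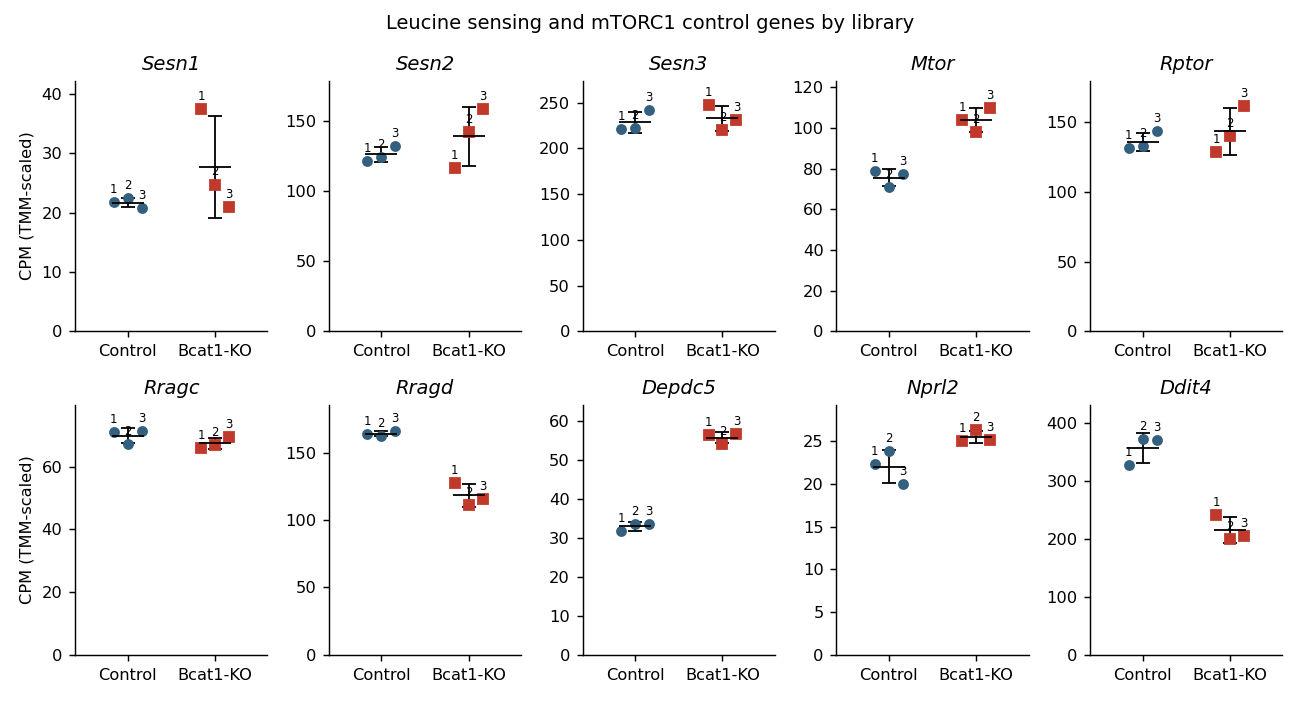
CPM (TMM-scaled, each axis from 0) of the 10 genes in the 3 control (blue circles) and 3 Bcat1-KO libraries (red squares), with replicate numbers, group means (wide bar) and SD (error bars, n = 3). The groups are apart for Depdc5, Mtor, Nprl2, Ddit4 and Rragd and overlap for the other 5.

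The stretches of 250 bases before the RefSeq start sites are shown for the 4 genes with the largest called changes and for Rragc, which did not pass the test although its paralog Rragd did. RefSeq's promoter table (GRCm38.p6) matched all 10 genes, with 11 start sites in all, since Sesn1 has 2. Capitals mark CCAAT boxes (CCAAT or ATTGG), GC boxes (GGGCGG or CCGCCC) and the E-box CACGTG, which is the core of the lysosomal gene element bound by TFEB and its relatives.
Depdc5 (chr5:32863471-32863720, plus strand): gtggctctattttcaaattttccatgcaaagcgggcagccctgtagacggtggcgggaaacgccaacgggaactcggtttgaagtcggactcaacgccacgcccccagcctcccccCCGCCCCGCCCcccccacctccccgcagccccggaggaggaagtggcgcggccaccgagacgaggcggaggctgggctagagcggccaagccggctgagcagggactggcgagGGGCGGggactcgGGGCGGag
Mtor (chr4:148448332-148448581, plus strand): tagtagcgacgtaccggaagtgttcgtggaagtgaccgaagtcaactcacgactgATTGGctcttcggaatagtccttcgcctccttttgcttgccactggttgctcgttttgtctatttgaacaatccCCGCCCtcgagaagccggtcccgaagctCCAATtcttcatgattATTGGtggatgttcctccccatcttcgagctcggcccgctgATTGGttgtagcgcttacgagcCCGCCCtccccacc
Ddit4 (chr10:59951771-59952020, minus strand): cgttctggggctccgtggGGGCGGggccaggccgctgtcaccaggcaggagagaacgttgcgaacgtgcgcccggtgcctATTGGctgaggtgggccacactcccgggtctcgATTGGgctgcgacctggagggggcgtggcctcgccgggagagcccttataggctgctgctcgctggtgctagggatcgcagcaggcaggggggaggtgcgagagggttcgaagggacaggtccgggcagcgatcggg
Rragd (chr4:32982748-32982997, plus strand): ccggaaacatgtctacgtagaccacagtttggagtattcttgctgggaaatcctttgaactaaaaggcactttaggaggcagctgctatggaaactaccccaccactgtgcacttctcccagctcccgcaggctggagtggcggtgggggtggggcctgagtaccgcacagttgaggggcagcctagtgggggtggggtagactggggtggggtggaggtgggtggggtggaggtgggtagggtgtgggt
Rragc (chr4:123917183-123917432, plus strand): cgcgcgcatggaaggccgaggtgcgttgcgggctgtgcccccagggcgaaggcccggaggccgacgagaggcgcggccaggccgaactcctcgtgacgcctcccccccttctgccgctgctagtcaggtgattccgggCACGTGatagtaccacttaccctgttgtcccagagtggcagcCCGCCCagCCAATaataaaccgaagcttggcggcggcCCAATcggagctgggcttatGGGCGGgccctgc
The Rag pair differs in these stretches. Rragc holds 24 CpG pairs, a CACGTG at positions -112 to -107 from the start, and CCAAT and GC boxes, whereas Rragd holds 5 CpG pairs and none of the letters searched. Depdc5, Mtor and Ddit4 hold 24, 19 and 22 CpG pairs, against a median of 6 over all 32817 promoters, of which 37.8% hold at least 10. Among the other genes that did not pass the test, Sesn1 holds 23 and 24 at its 2 start sites, Sesn2 18, Sesn3 16 and Rptor 9. Both strands were searched, and 2 GC boxes of Depdc5 overlap by a base. CACGTG was found in 6.02% of all promoters, the CCAAT box in 33.8% and the GC box in 32.7%. Searches for TGATGNAA (the joint ATF4 and C/EBP element, in 3.45% of promoters), GTAAACA (a FoxO element, 3.16%) and TATAAA (12.4%) had no match in the 10 genes. TGACNNNGC, the core of the antioxidant response element, was found in Sesn2 only among the 10 genes, at positions -36 to -28, and in 10.2% of all promoters. A match describes the letters and is not evidence of binding.

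Sestrins stand at the head of the pathway. Sesn2, which is known to bind leucine, had 117, 142 and 159 CPM in knockout replicates 1, 2 and 3 and 122, 125 and 132 CPM in the control. The groups overlapped, because knockout replicate 1 lay below every control library while the other knockout libraries lay above them. On the log2 scale the difference was 0.14 ± 0.10 (SE, edgeR adjusted p = 0.229). Without Bcat1-KO replicate 1 it was 0.23 and passed (adjusted p = 0.00668, edgeR), and without Bcat1-KO replicate 3 it was 0.02 (adjusted p = 0.84, edgeR).

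Sesn1, a paralog known as a p53 target, went the other way in the same library. Its knockout libraries held 37.4, 24.7 and 20.9 CPM and its control libraries 21.8, 22.5 and 20.8 CPM. Replicate 1 was far above the rest, and replicate 3 lay within the control range. On the log2 scale the difference was 0.35 ± 0.17 (SE, edgeR adjusted p = 0.0906), and it was 0.05 without Bcat1-KO replicate 1 (adjusted p = 0.591, edgeR). Without Bcat1-KO replicate 3 it was 0.51 and passed (adjusted p = 0.0143, edgeR), and with the median change of the 51 tested genes centred on it along the chromosome removed it was 0.59. Sesn3, a paralog known as a FoxO target, had 247, 221 and 231 CPM in knockout libraries against 221, 222 and 242 CPM in controls. These ranges covered each other, and the log2 difference was 0.03 ± 0.07 (SE, edgeR adjusted p = 0.74).

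**Figure D2:**
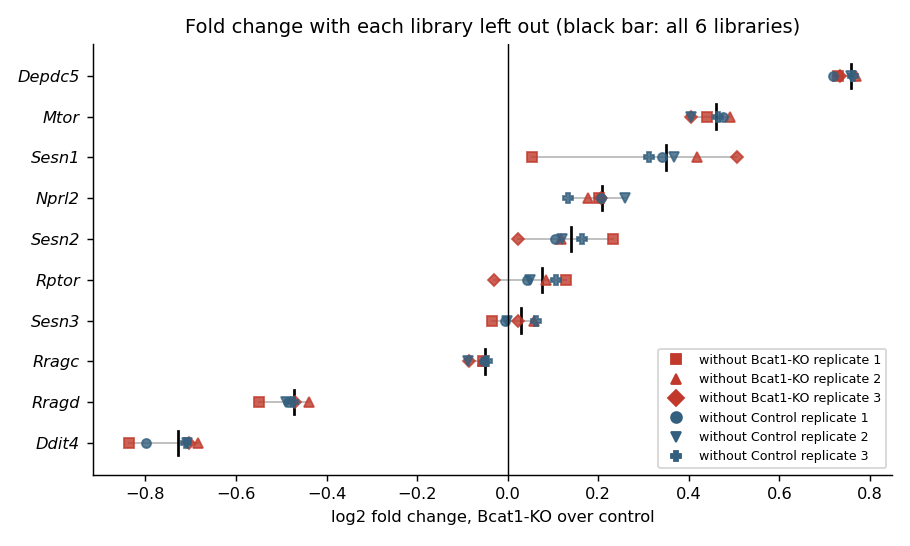
Log2 fold change of each gene (Bcat1-KO over control, edgeR) with all 6 libraries (black bar) and with each library left out in turn (symbols, red for a knockout and blue for a control library). Sesn1 spans 0.05 to 0.51 and Sesn2 0.02 to 0.23, whereas Depdc5, Mtor, Rragd and Ddit4 stay on 1 side of 0 by at least 0.40.

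Per transcript length, Sesn2 was the leading Sestrin in every library. On the TPM scale (counts scaled by exonic length and then by library), it made up 64.1% ± 6.5 of the summed Sestrin level in the knockout and 64.1% ± 0.308 in the control (mean ± SD, n = 3 each). Sesn3 made up 24.6% ± 2.42 and 26.3% ± 0.435, and Sesn1 made up 11.3% ± 4.1 and 9.61% ± 0.674. The shares of all 3 Sestrins overlapped between groups (two-sided exact permutation p = 1, 0.4 and 0.7 for Sesn2, Sesn3 and Sesn1, adjusted 1, 0.533 and 0.8, where the smallest p that 3 against 3 can give is 0.1). The spread of the shares was wide in the knockout, where replicate 1 held 56.8% Sesn2 and 15.9% Sesn1, and replicate 3 held 69.2% and 7.93%. The summed level of the 3 genes was 190, 204 and 218 TPM in knockout libraries against 175, 175 and 187 TPM in controls. These sums did not overlap (exact permutation p = 0.1, the smallest possible, and 0.16 after Benjamini-Hochberg adjustment over 8 such quantities). The margin was narrow, 190 against 187 TPM. Over all tested genes the median log2 fold change was 0.053 on log2(TPM + 1) and 0.011 with TMM scaling, so TPM ran slightly higher in the knockout. Whether the sums also separate with TMM scaling was not tested.

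GATOR1, which holds mTORC1 off when amino acids are short, consists of Depdc5, Nprl2 and Nprl3. Depdc5 (ENSMUSG00000037426.17, chromosome 5 from 32863701 to 32994236, mm10) had 56.3, 54.0 and 56.5 CPM in knockout libraries against 31.6, 33.4 and 33.6 CPM in controls. The groups were far apart and tight within. It was 1.69-fold higher in the knockout, and the log2 difference was 0.76 ± 0.06 (SE, edgeR adjusted p = 1.08e-06). Its neighbours moved with it: of the 50 nearest tested genes (31144739 to 34513991), 35 were higher and 4 lower in the knockout. Over all tested genes 32% were higher and 30.3% lower. The median of the stretch was 0.47. With that median removed the log2 fold change of Depdc5 was 0.29. Whether the position of the gene has a part in its change was not tested.

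Nprl2 (chromosome 9 from 107542226 to 107545706) had 25.0, 26.3 and 25.1 CPM in knockout libraries against 22.3, 23.8 and 19.96 CPM in controls. Every knockout library was above every control library, by a narrow margin. On the log2 scale the difference was 0.21 ± 0.08 (SE, edgeR adjusted p = 0.0495), and the call was lost in 8 of 14 alternatives, among them those without Bcat1-KO replicate 2 or 3 or Control replicate 1 or 3, with adjusted p-values between 0.0172 and 0.265 over those that have a test. The third subunit gene, Nprl3, did not pass (control 44.7 ± 2.68 CPM, knockout 46 ± 3.76 CPM, adjusted p = 0.652, edgeR). On the TPM scale Depdc5 was the least abundant of the 10 genes in both groups, and its ratio to Nprl2 was 0.373 ± 0.019 in the knockout and 0.257 ± 0.0269 in the control. The ratios did not overlap (exact permutation p = 0.1, adjusted 0.16).

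The Rag genes gave 2 unlike results. Rragd (ENSMUSG00000028278.14, chromosome 4 from 32983037 to 33022180), which is known as a target of the TFEB family, had 128, 111 and 116 CPM in knockout libraries against 164, 162 and 166 CPM in controls. The control libraries were almost equal and all lay above the knockout ones. Rragd fell by 0.47 on the log2 scale (SE 0.07, adjusted p = 8.31e-05, edgeR), a level 27.9% below the control. Rragc, whose protein can take the same place in the dimer, had 65.9, 67.0 and 69.5 CPM in knockout libraries against 70.9, 67.3 and 71.5 CPM in controls. These values overlapped, and the log2 difference was -0.05 ± 0.06 (SE, edgeR adjusted p = 0.489).

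Rragd was the more abundant of the pair per length in every library, and less so in the knockout. Its share of the summed TPM of the pair was 55.5%, 51.7% and 51.8% in knockout libraries against 59.8%, 60.9% and 60.0% in controls. The groups did not overlap, with a difference of -7.19 percentage points (exact permutation p = 0.1, adjusted 0.16). The summed level of the pair was 141 ± 2.55 TPM in the knockout and 166 ± 4.41 TPM in the control. On the partner side, Rraga was lower, from 70.8 ± 6.81 to 54.8 ± 2.2 CPM (-0.37 on the log2 scale, adjusted p = 0.0015), and Rragb was higher, from 10.9 ± 0.693 to 23.5 ± 2.11 CPM (log2 fold change 1.1, adjusted p = 1.68e-06, edgeR). Per length Rraga remained the more abundant of these, with 111 TPM against 34 TPM for Rragb in the knockout and 138 against 15.2 TPM in the control.

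Mtor (ENSMUSG00000028991.15, chromosome 4 from 148448611 to 148557683), the catalytic subunit, had 104, 98.1 and 110 CPM in knockout libraries against 78.6, 71.1 and 77.2 CPM in controls. All knockout libraries were above all control libraries. It was 1.37-fold higher (log2 fold change 0.46, SE 0.07, adjusted p = 0.000119, edgeR). Its 50 neighbours were mixed, 16 higher and 13 lower, beside 32% and 30.3% of all tested genes. Rptor, which presents substrates to the kinase, had 129, 140 and 162 CPM in knockout libraries against 132, 133 and 144 CPM in controls. Its groups overlapped, with the lowest of all 6 values in knockout replicate 1 and the highest in knockout replicate 3. For Rptor the log2 difference was 0.08 ± 0.08 (SE, edgeR adjusted p = 0.45), 0.21 with the neighbouring median removed and -0.03 without Bcat1-KO replicate 3. Per length, the ratio of Mtor to Rptor was 1.08, 0.934 and 0.908 in knockout libraries against 0.796, 0.713 and 0.716 in controls, without overlap (exact permutation p = 0.1, adjusted 0.16).

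Ddit4 (ENSMUSG00000020108.3, chromosome 10 from 59949675 to 59951770), which hypoxia, glucocorticoids and amino acid or endoplasmic reticulum stress are known to induce, was the most abundant of the 10 genes per length. It had 242, 201 and 206 CPM in knockout libraries against 328, 373 and 372 CPM in controls. The lowest control library was well above the highest knockout library. Ddit4 fell by 0.73 on the log2 scale (SE 0.09, adjusted p = 1.99e-05, edgeR), which is 39.6% below the control, and by 0.55 with the neighbouring median removed. Of its 50 neighbours, 5 were higher and 24 lower, beside 32% and 30.3% of all tested genes. Its paralog Ddit4l was low in both groups, with a knockout level of 0.254 ± 0.0893 CPM beside a control level of 1.71 ± 0.0484 CPM (adjusted p = 4.96e-06, edgeR).

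**Figure D3:**
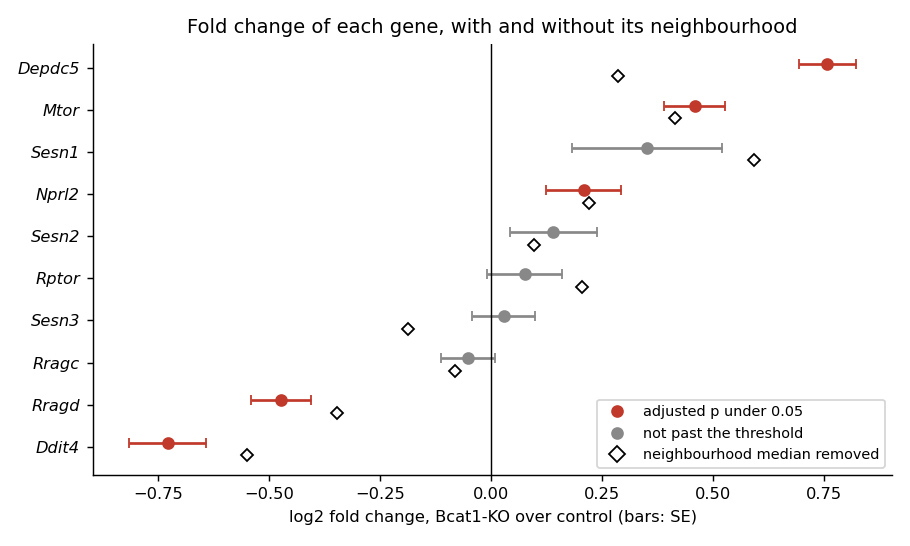
Log2 fold change of each gene, Bcat1-KO over control, from edgeR (circles, bars are SE; red where the adjusted p is under 0.05), and the same after the median of the 51 tested genes centred on it was removed (open diamonds). Depdc5 goes from 0.76 to 0.29, the largest step to 0 among the called genes, and Ddit4 and Rragd stay below 0.

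The order of the levels per length was the same in both groups. On the TPM scale it ran Ddit4, Sesn2, Rragd, Rragc, Sesn3, Nprl2, Rptor, Mtor, Sesn1 and Depdc5, from 670 ± 44.1 to 8.81 ± 0.249 TPM in the control and from 420 ± 36.1 to 15.5 ± 0.315 TPM in the knockout. Neighbours in that order whose libraries overlapped were Nprl2 and Rptor in the control and Rptor and Mtor in the knockout. The gap between Sesn2 and Rragd went from 115 ± 5.07 against 100 ± 1.74 TPM in the control to 132 ± 21.8 against 74.8 ± 3.95 TPM in the knockout.

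Around the 10 genes, 80 further genes of the pathway were listed in 8 groups, of which 77 were tested. Of these, 28 were higher and 24 lower, and the 52 calls among 77 genes lie near the background of 62.3%. The counts per list below have the same background, 32% higher and 30.3% lower, and no list was tested against it. The median log2 fold change of the 77 was -0.003, beside 0.01 over all tested genes. Among the other Rag and Ragulator genes, with the lysosomal arginine sensor gene Slc38a9, 2 of 8 were higher and 1 lower. The third call was Lamtor1, a Ragulator anchor, at 0.19 on the log2 scale (adjusted p = 0.042, edgeR), lost in 7 of 14 alternatives, among them those without Bcat1-KO replicate 3 or any 1 control library. Among the other GATOR and KICSTOR genes 2 of 10 were higher and 4 lower, with a median of -0.17. Among the lower ones were genes of KICSTOR, the scaffold that holds GATOR1 at the lysosome: BC048403 (Kics2) fell from 13.96 ± 0.666 to 11.2 ± 0.429 CPM, and Kptn from 17.2 ± 0.431 to 13.8 ± 0.74 CPM. The GATOR2 subunit gene Wdr59 fell from 48.7 ± 1.12 to 38.8 ± 3.32 CPM. With the neighbouring median removed, Wdr59 was at 0.06 instead of -0.33, BC048403 at 0 instead of -0.31 and Kptn at -0.57 instead of -0.31. The stretch includes the gene itself, and BC048403 was the median of its own stretch, so its 0 follows from the method. The GATOR2 subunit genes Seh1l and Sec13 were the 2 higher calls, at 0.25 (adjusted p = 0.00376) and 0.15 (adjusted p = 0.0491). With the neighbouring median removed Sec13 was at -0.10 and Seh1l at 0.000148, and 1 gene of the list was called higher with any single library left out.

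Genes of other amino acid sensors were higher for 4 of 6 and lower for 1, beside 32% and 30.3% of all tested genes. Gatsl2 (Castor2), related to the arginine sensor of mTORC1, rose from 22.8 ± 1.83 to 44 ± 6.07 CPM. Sar1b, a GTPase described as a leucine sensor, rose from 41.3 ± 2.52 to 53.6 ± 2.22 CPM and Bmt2 (Samtor), the S-adenosylmethionine sensor, from 25.4 ± 0.22 to 31.6 ± 2.75 CPM, although Bmt2 was at -0.07 with the neighbouring median removed. Lars, the leucyl-tRNA synthetase, did not pass (adjusted p = 0.461, edgeR). The lower call was Gatsl3 (Castor1), with a knockout level of 0.108 ± 0.0459 CPM beside a control level of 1.34 ± 0.288 CPM. In the folliculin complex, which acts on RagC and RagD, 2 of 3 genes were lower and 0 higher, a count too small to set apart from the background, in which 62.3% of genes were called and 30.3% were lower. Flcn fell from 123 ± 14.9 to 83.5 ± 5.52 CPM and Fnip2 from 38.6 ± 3.05 to 32.6 ± 0.531 CPM, a call that was lost without Control replicate 3 (adjusted p = 0.0779, edgeR) and with limma on log2(TPM + 1) (adjusted p = 0.112), while Fnip1 did not pass (adjusted p = 0.267, edgeR).

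Of 9 tested subunits and chaperones of the mTOR complexes, 5 were higher and 3 lower. Deptor, an inhibitory subunit, fell from 38.6 ± 2.05 to 16.7 ± 1.22 CPM (log2 fold change -1.21, adjusted p = 1.4e-07, edgeR). Prr5, a subunit of mTORC2, rose from 5.42 ± 0.255 to 9.96 ± 2.01 CPM and the chaperone gene Tti1 from 35.7 ± 0.974 to 44.5 ± 2.22 CPM. Tti1 was at 0.32 on the log2 scale, and at 0.18 with the neighbouring median removed. In the TSC and Rheb branch with its AMPK and Akt inputs, 5 of 17 were higher and 5 lower. Tsc1, the gene of the scaffold of TSC, fell from 117 ± 12 to 81.1 ± 6.48 CPM. The AMPK subunit genes were mixed. Prkaa2 rose from 4.49 ± 0.213 to 18.6 ± 1.37 CPM and Prkab1 from 24.8 ± 0.519 to 41.7 ± 3.71 CPM. Prkaa1, the more abundant paralog of Prkaa2, did not pass (control 60.3 ± 2.0 CPM, knockout 59.8 ± 3.65 CPM, adjusted p = 0.887, edgeR). Prkab2, the paralog of Prkab1, fell from 41.2 ± 3.55 to 29.5 ± 2.4 CPM. Prkag1 rose from 59.1 ± 0.443 to 70.6 ± 5.52 CPM and Prkag2 from 41.1 ± 1.0 to 55.7 ± 3.0 CPM.

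Of 13 tested substrates of mTORC1, 5 were higher and 3 lower. The transcription factor genes Mitf and Tfeb rose, Mitf from 2.42 ± 0.167 to 9.17 ± 0.841 CPM and Tfeb from 6.49 ± 0.375 to 12.8 ± 2.43 CPM. Tfe3, a more abundant gene of the same family, was lower, from 44.9 ± 0.895 to 38.9 ± 2.78 CPM (adjusted p = 0.0253, edgeR). Lpin1, a phosphatidate phosphatase gene, fell from 787 ± 40.2 to 585 ± 60.2 CPM, or -0.43 on the log2 scale and -0.66 with the neighbouring median removed. Of 11 factors known to control Sestrin, Ddit4 or Rragd genes, 5 were higher and 5 lower, and Atf4 did not pass (control 619 ± 30.8 CPM, knockout 568 ± 27.5 CPM, adjusted p = 0.162, edgeR). Ddit3 (CHOP), an endoplasmic reticulum stress factor, fell from 201 ± 3.4 to 116 ± 15.1 CPM. Its change was -0.79 on the log2 scale, or -0.30 with the neighbouring median removed. Epas1 (HIF-2 alpha) fell from 6.03 ± 0.931 to 2.93 ± 0.855 CPM, and Foxo1 rose from 11.4 ± 0.593 to 22.6 ± 1.39 CPM. Among their more abundant paralogs, Hif1a rose from 148 ± 2.56 to 168 ± 0.78 CPM, and Foxo3 fell from 64.7 ± 3.53 to 48.6 ± 4.44 CPM. Foxo4 was higher, from 24.3 ± 1.27 to 33.5 ± 6.62 CPM. With the neighbouring median removed Hif1a was at -0.15 instead of 0.18, and Foxo3 at -0.17 instead of -0.41. How these factors relate to the 10 genes was not tested.

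**Figure D4:**
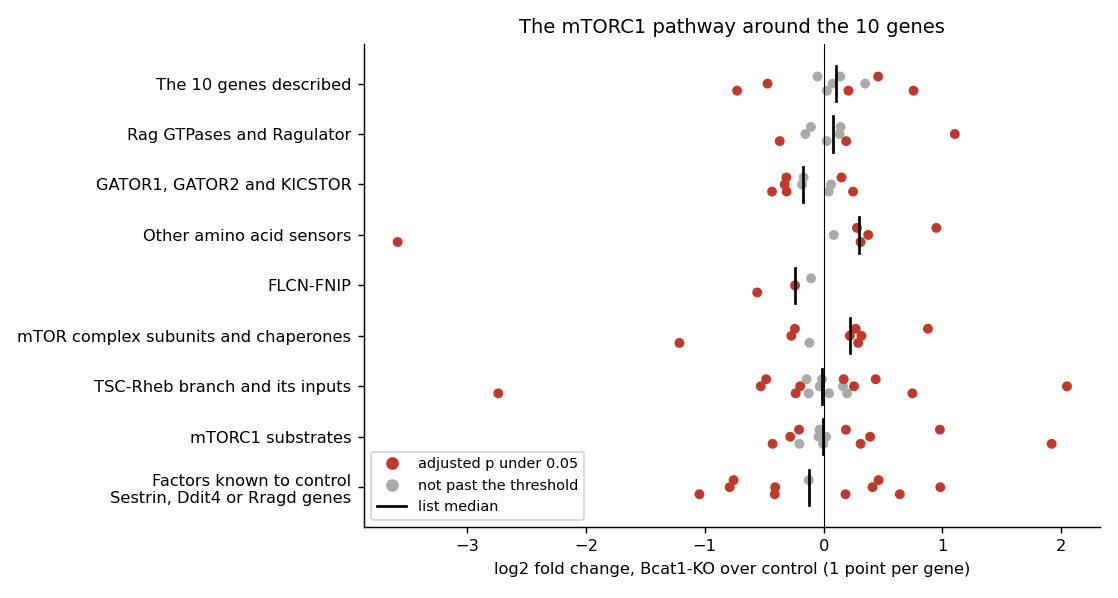
Log2 fold change (Bcat1-KO over control) of the 10 genes and of the 77 tested genes of 8 lists around them, 1 point per gene, red where the edgeR adjusted p is under 0.05, with a black bar at each list median. The medians lie between -0.24 (FLCN-FNIP) and 0.30 (other amino acid sensors), and most lists hold calls on both sides of 0.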

How the data were processed

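The 6 deposited tables hold read counts per gene, without regard to strand and for each strand, and TPM values. The submitters' processing notes name STAR 2.5.3a, featureCounts and the build mm10. The release of the gene annotation was not given in the sources used here. The library kit is stranded, per the labels' protocols, and 96.4% to 96.5% of stranded counts lay on the reverse strand, so these deposited counts were used. The deposited TPM values served to compare levels between genes. Genes on the opposite strand overlap Rragc, Rptor, Mtor and Rragd. For Rragc and Rptor the unstranded totals (13452 and 28279) were below the reverse-strand totals (14026 and 28617). For Mtor and Rragd they (18614 and 28470) were above them (18595 and 28442). The cause of this difference was not tested.

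Counts were filtered with edgeR 4.0.16 (filterByExpr), scaled by TMM and tested with its quasi-likelihood test without covariates, with Benjamini-Hochberg adjustment over 14020 genes. Shares and ratios were compared by exact permutation tests over libraries with scipy 1.17.1. The summed levels and the 2 ratios were added after the values were seen. The test was checked on simulated data with few changed genes and no outlying library. These data differ in both, so the check does not cover their setting. Every pair of replicates differed beyond sampling noise (chi-square per gene 3.91 to 32.5), and none was merged. Library depth sets 3 counts at 0.0794 to 0.102 CPM. The 10 genes and the lists were chosen with earlier results of these data known. The text names all 10 genes, Bcat1, and from each list up to 3 genes with the largest called change and a mean log2 CPM of at least 0. A gene that this rule names is not reported here. Kptn, Seh1l, Sec13, Gatsl3, Ddit4l, Nprl3, Lars and Atf4 were added after their values were seen, and so were the cell type markers named. The same holds for Prkaa1, Prkab2, Prkag1, Prkag2, Tfe3, Hif1a, Foxo3 and Foxo4. Alternatives used R 4.3.3, DESeq2 1.42.0 and limma 3.58.1 (log2(TPM + 1)).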

Additional observations from a re-analysis of the deposited data

Results flagged for a closer look

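Reads on the strand not used for the test were few at the 10 genes. At Mtor they summed to 14 in the knockout and 5 in the control, and at Rptor to 27 and 8. For both genes every knockout library held a higher CPM of such reads than every control library, which is why they are listed. The values were 0.0824 to 0.197 against 0.0298 to 0.0677 for Mtor, and 0.169 to 0.302 against 0.0633 to 0.102 for Rptor. Single libraries held 1 to 7 such reads at Mtor and 2 to 11 at Rptor. Rragd was separated the other way, at 0.0824 to 0.112 in the knockout and 0.158 to 0.203 in the control. For Mtor and Rragd the direction was that of the tested strand. How often all genes separate on this strand was not tested. On the opposite strand, Angptl7 overlaps Mtor, and Rptoros and Gm11761 overlap Rptor.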

How the results depend on the processing

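The calls of Depdc5, Mtor, Ddit4 and Rragd held in all 13 alternatives that test a single gene against no change. That of Nprl2 did not hold with upper quartile scaling (log2 fold change 0.197, adjusted p = 0.0681), DESeq2 size factors (0.194), no filter on low counts (0.1997) or DESeq2 (0.198, adjusted p = 0.094). Without a filter Sesn1 passed in edgeR (0.341, adjusted p = 0.00132). On the TPM scale Rragc was at 0.00233. Removing the median of the 51 neighbouring genes gave -0.186 for Sesn3, 0.205 for Rptor, -0.347 for Rragd, 0.286 for Depdc5 and -0.55 for Ddit4. It turned Wdr59 to 0.0612 and Bmt2 to -0.074, and left Tti1 at 0.184. BC048403 was left at 0 because its own change was the median of its stretch. Against a 1.5-fold change 1 of the 10 genes was higher and 0 lower, with 1564 and 1481 of all genes.

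With each library left out, log2 fold changes ran from 0.0527 to 0.506 for Sesn1, 0.0221 to 0.233 for Sesn2, -0.0354 to 0.0623 for Sesn3, -0.0305 to 0.13 for Rptor and 0.133 to 0.259 for Nprl2. Members called higher numbered 2 to 4 and lower 2, while 3871 to 4589 of all tested genes were called higher and 3846 to 4741 lower. Differences in share ran from -0.598 to 3.36 percentage points for Sesn1 and from -2.43 to 3.75 for Sesn2. The causes of these shifts were not tested. Deviations from the group mean had correlations of -0.0508, -0.073 and 0.156 between same-numbered libraries. Between differently numbered ones they ran from -0.118 to 0.176. With 3 libraries per group these values cannot decide whether the numbers mark a shared batch. With the replicate block 3 of the 10 genes were higher and 2 lower, and 4448 and 4214 of all genes.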
